A study of Mus musculus with 5 samples.

Results

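Progenitors of subcutaneous fat (SAT) were compared with progenitors of visceral fat (VAT) over all sorted gates. The comparison was defined by depot alone and took in 5 of the 5 libraries, 2 from SAT and 3 from VAT. All came from wild-type (WT) mice of 12 to 14 weeks on chow diet. Cells of the stromal vascular fraction of 30 mice were stained for CD26, which marks interstitial progenitors, and for CD142, which marks a progenitor subset known for restraining adipogenesis. Cells positive for the endothelial marker CD31 or the leukocyte marker CD45 were gated out. SAT library 1 is titled CD26+CD142- and named for CD142. SAT library 2 is titled CD26-CD142+ and named for CD26, so the labels alone leave the gate of each SAT library uncertain. VAT libraries 1 and 2 are CD26-CD142+ and VAT library 3 is CD26+CD142+ by title and by name. Depot is the same in every label. Whether each library had its own pool of mice is not stated in the labels. A p-value here therefore measures the spread between these libraries, which takes in differences of gate within each depot and may otherwise be technical. Values are given in this order throughout, SAT libraries 1 and 2, then VAT libraries 1, 2 and 3.

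Fat depots arise from different parts of the mesoderm, and their stromal progenitors keep depot-specific sets of patterning transcription factors in adult life. TBX15 and SHOX2 are known markers of subcutaneous progenitors. WT1 and TCF21 are known markers of visceral ones, and WT1 is also made by the mesothelium that covers visceral fat. HOX genes, which lie in 4 clusters and specify position along the body axis, also differ between depots. Beyond patterning, progenitors build the matrix of the tissue and send the chemokines and growth factors that its immune cells and vessels read.

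The 5 libraries held 21706345 to 25357403 counts. The mesenchymal markers Pdgfra and Cd34 were high in every library: Pdgfra stood at 687 and 892 CPM in SAT and 682, 1173 and 1108 CPM in VAT, in CPM (counts scaled to library size by the TMM method). The leukocyte marker Ptprc, which encodes CD45, was between 0.183 and 0.989 CPM. Mitochondrially encoded genes took 2.83% and 4.33% of counts in SAT library 1 and VAT library 1, against 0.554% to 0.633% in the other 3 libraries. In a principal component analysis of log2(CPM + 0.5), the first component, with 49.6% of the variance, mixed the depots: SAT library 1 scored 51.7, SAT library 2 -81.4, and the VAT libraries 59.8, 12.4 and -42.5. Depot separated on the second component, with 32.7% of the variance, where the SAT libraries scored 64.0 and 38.8 and the VAT libraries -16.1, -52.4 and -34.3. Likewise, the correlation across genes was lower between both SAT libraries (r = 0.905) than between SAT library 1 and VAT library 1 (0.952) or SAT library 2 and VAT library 3 (0.951). Genes that separate the depots over all gates therefore had to do so across libraries that otherwise differed widely within each depot.

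Of 15920 genes tested, 8 passed edgeR's quasi-likelihood test at a Benjamini-Hochberg adjusted p of 0.05, 6 higher in SAT (0.0377% of tested genes) and 2 higher in VAT (0.0126%). The wider set described here rests on order. A gene is called apart when the lowest library of the higher depot exceeds the highest library of the lower depot by at least 2-fold, after adding 0.5 CPM to each, provided that the higher depot has 5 CPM or more throughout. By that rule 96 genes were apart with SAT higher (0.603% of tested genes) and 109 with VAT higher (0.685%), together 205 genes (1.29%). Without a minimum gap or level, every SAT library was above every VAT library in 1534 genes (9.64%), and the reverse held in 1625 (10.2%). These counts are descriptions and carry no test. Fewer libraries leave less to separate: without SAT library 1 the rule gave 339 and 386 genes, without SAT library 2 412 and 239, and without VAT library 3 150 and 265. The gap ran from the threshold to 126-fold (Tbx15) in SAT and to 207-fold (Wt1) in VAT, with medians of 3.14 and 2.97. It was wider than the spread inside either depot in 144 of the 205 genes. Just inside the threshold were Snhg11 and Bst2 in SAT and Stard13 and Hoxa3 in VAT, each with a gap of 2.01-fold. Just outside it lay Enah (2.00-fold after rounding) and Wisp2 (1.99) for SAT, and Mertk (2.00 after rounding) and Ramp1 (1.98) for VAT.

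**Figure D1:**
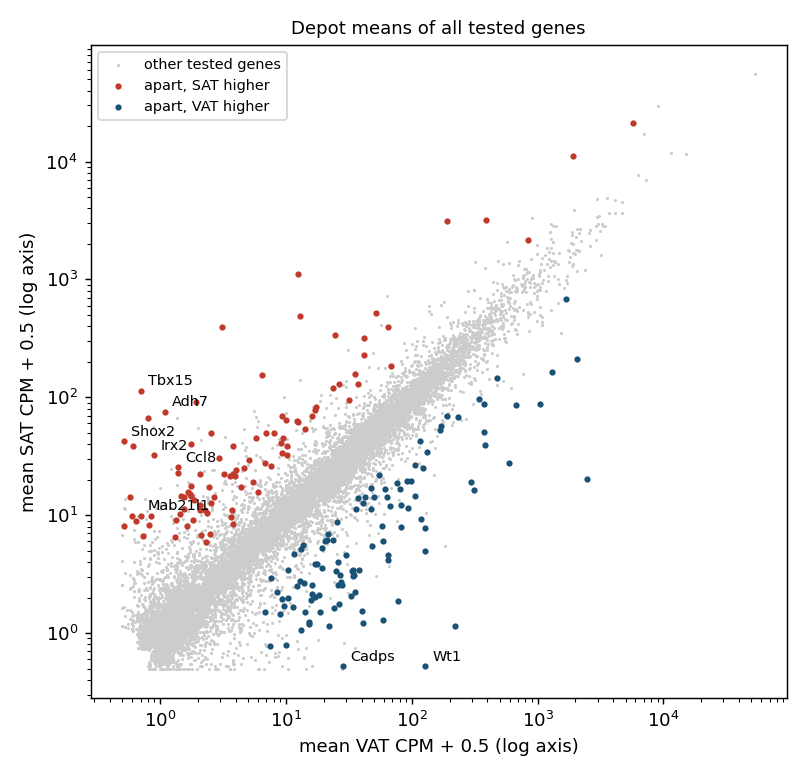
Level of each tested gene in SAT against VAT. Both log axes show the mean over the libraries of a depot in CPM + 0.5, points are genes, and colours mark the 96 genes apart with SAT higher and the 109 apart with VAT higher. Labels name the 8 genes that passed the test, which lie near the floor of the depot where they are low.

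The 4 widest gaps belonged to transcription factors, Wt1, Tbx15, Tcf21 and Shox2. Tbx15, a T-box factor of limb and skin mesenchyme, stood at 129 and 97.2 CPM in SAT and 0.275, 0.129 and 0.206 CPM in VAT. Shox2, a short-stature homeobox factor of the proximal limb, stood at 53.8 and 29.7 CPM in SAT and 0.0458, 0 and 0 CPM in VAT. Levels in both SAT libraries were thus well above all VAT libraries, where Shox2 rested on 1 count in all. Each passed the test, with adjusted p = 0.0172 for Tbx15 (log2 difference 9.09, SE 0.39) and 0.0453 for Shox2.

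The Iroquois homeobox genes, which sit in 2 genomic clusters and pattern limb, heart and neural tissue, went together in SAT. Irx2 stood at 25.9 and 37.8 CPM in SAT and 0.413, 0.301 and 0.453 CPM in VAT and passed the test (log2 difference 6.33, SE 0.35, adjusted p = 0.0224). Its cluster neighbour Irx1 stood at 22.8 and 54.1 CPM in SAT and 0.138, 0 and 0.206 CPM in VAT, which is apart but did not pass (adjusted p = 0.146). Irx3 and Irx5, of the other cluster, were lower overall: Irx5 stood at 4.85 and 16.8 CPM in SAT and 0.0917, 0 and 0 CPM in VAT. All 4 tested members had every SAT library above every VAT library, with a median log2 difference of 7.31, against 0.008 over all tested genes. Irx4 and Irx6 had 0 counts in every library, so the pattern held for 4 of the 6 members and took in both clusters.

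Other factors of limb, trunk and head mesenchyme followed. Mab21l1, a nucleotidyltransferase-fold gene needed in eye and craniofacial development, stood at 8.18 and 10.6 CPM in SAT and 0.183, 0.215 and 0.206 CPM in VAT (log2 difference 5.50, SE 0.42, adjusted p = 0.0453). En1, the engrailed homeobox factor known from ventral limb ectoderm and from dermal fibroblasts, stood at 18.04 and 25.3 CPM in SAT and 1.01, 1.46 and 2.27 CPM in VAT. The sclerotome factor Pax1 stood at 13.1 and 5.50 CPM in SAT and 0.413, 0.430 and 0.206 CPM in VAT. In VAT these 3 genes were at most 2.27 CPM. Msx1, a homeobox factor of growing mesenchyme, differed in kind, since VAT kept a clear level of it: it stood at 90.3 and 48.5 CPM in SAT and 13.1, 12.9 and 20.9 CPM in VAT. Lmx1a stood at 8.18 and 26.4 CPM in SAT and 0.321, 0.172 and 3.30 CPM in VAT. Its paralog Lmx1b was at 2.55 and 8.34 CPM in SAT and 0, 0 and 0.412 CPM in VAT. Lmx1b, which specifies the dorsal limb, missed the level threshold of 5 CPM in SAT library 1 but was at 0 in VAT libraries 1 and 2. Tbx5, the forelimb T-box factor, missed it too, at 2.90 and 23.4 CPM in SAT and 0, 0 and 0.0824 CPM in VAT. Tbx5 was much higher in SAT library 2 than in library 1, so the size of its depot difference depends on the SAT library. Of 8 tested T-box genes, 4 were higher in every SAT library (Tbx15, Tbx5, Tbx1 and Tbx18) and 2 in every VAT library. The shares over all tested genes were 9.64% and 10.2%. Among the T-box genes higher in VAT was Tbx3, at 5.50 and 5.91 CPM in SAT and 9.86, 14.6 and 13.03 CPM in VAT.

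Of 23 tested genes on a list of subcutaneous patterning factors, 16 (69.6%) had every SAT library above every VAT library and 10 were apart, with a median log2 difference of 3.12. The list was drawn up with earlier results of these data known, so its direction is not independent evidence. Alx1 and Alx4, craniofacial homeobox factors placed on that list, went the other way: Alx1 was at 0 CPM in SAT and 7.24, 4.99 and 4.29 CPM in VAT, and Alx4 at 2.16 and 2.66 CPM in SAT and 5.27, 8.51 and 9.15 CPM in VAT.

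On the visceral side, Wt1, the Wilms tumour zinc finger factor, stood at 0 and 0.0451 CPM in SAT and 113, 154 and 112 CPM in VAT (adjusted p = 0.0224). Its SAT value rests on 1 count, and the pooled ratio of VAT to SAT was 5735, with an exact 95% interval of 1029 to 226540 for counting error only. Tcf21, a basic helix-loop-helix factor of visceral mesoderm, stood at 1.25 and 0.0451 CPM in SAT and 212, 223 and 229 CPM in VAT. Tcf21 did not pass the test (log2 difference -8.39, SE 1.22, adjusted p = 0.185), although its gap was 121-fold. Both genes were close to even across the 3 VAT libraries. Tcf23, another helix-loop-helix factor, was at 1.34 and 0.135 CPM in SAT and 12.3, 17.2 and 14.4 CPM in VAT. Gata2, which restrains the step from preadipocyte to adipocyte, stood at 0.260 and 0.316 CPM in SAT and 8.62, 14.3 and 5.44 CPM in VAT. Tcf23 and Gata2 were thus at most 1.34 CPM in SAT. Meis1, a HOX cofactor, stood at 12.1 and 20.2 CPM in SAT and 56.7, 66.9 and 57.4 CPM in VAT, and the forkhead factor Foxp2 at 1.64 and 1.31 CPM in SAT and 13.02, 9.85 and 6.88 CPM in VAT. Meis1 was a graded difference, with a clear level in SAT. Of 21 tested genes on the visceral patterning list, 13 (61.9%) had every VAT library above every SAT library and 5 were apart, with a median log2 difference of -1.38. That list too was drawn up with earlier results known.

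Mesothelial markers moved with the visceral set only in part. Of 16 tested, 5 had every VAT library above every SAT library, Wt1 among them, and 0 the reverse. The shares over all tested genes were 10.2% and 9.64%. Krt7, Krt8, Krt18 and Krt19 had the higher mean in SAT. The summed level of 19 mesothelial markers was 295 and 30.1 CPM in SAT and 368, 388 and 589 CPM in VAT. Wt1 alone made up 113, 154 and 112 CPM of the VAT sums. The defining markers did not follow Wt1 between VAT libraries: Msln, which encodes mesothelin, stood at 0 CPM in SAT and 0.779, 2.41 and 38.5 CPM in VAT, and Upk3b at 0.0865 and 0.406 CPM in SAT and 0.321, 8.43 and 96.2 CPM in VAT. Besides Wt1, 3 markers of the list were apart in VAT, Rspo1, Nkain4 and Ezr. In VAT library 1, where Msln was under 1 CPM, Wt1 was at 113 CPM, and in VAT library 3, where Msln was highest, at 112 CPM. In SAT library 1 the sum held keratins that epithelial cells share, such as Krt18 at 46.7 and 0.0451 CPM in SAT and 0.733, 0.344 and 4.16 CPM in VAT, and the claudin Cldn15 at 60.7 and 1.89 CPM in SAT and 89.1, 59.4 and 15.1 CPM in VAT. Its epithelial list summed to 224 CPM against at most 39.1 CPM elsewhere. Fewer cells of a type and less RNA per cell cannot be told apart in such pooled libraries.

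**Figure D2:**
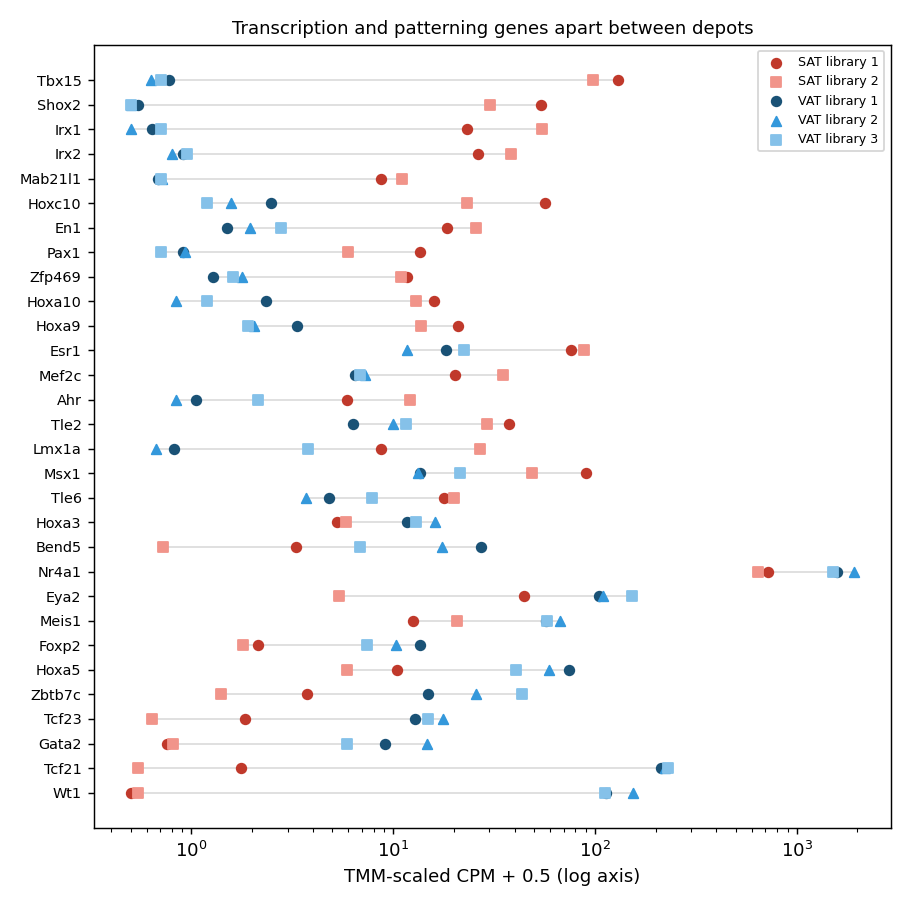
Levels of patterning factors in each library. The axis gives CPM on a log scale after adding 0.5, each point is a library, red for SAT and blue for VAT, and the genes are of the transcription and patterning class. Tbx15 and Shox2 at the top and Tcf21 and Wt1 at the bottom show the widest gaps, while Nr4a1 and Msx1 kept a clear level in both depots.

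Levels can be compared between genes only per length. Expressed per kilobase of gene length (RPKM, from the deposited lengths), the mean over the SAT libraries was 30.2 for Tbx15, 22.4 for Msx1, 20.6 for Hoxc10, 14.7 for Irx1, 12.6 for Shox2, 9.70 for Irx2 and 8.25 for En1. In VAT the mean was 94.2 for Tcf21, 30.6 for Hoxa5, 20.4 for Wt1 and 5.73 for Meis1. By these means Tbx15 was the most abundant of the 7 SAT factors and Tcf21 of the 4 VAT factors. The orders were not tested.

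HOX genes divided by position in the cluster. In cluster A, the anterior genes Hoxa2, Hoxa3, Hoxa5, Hoxa6 and Hoxa7 had every VAT library above every SAT library, while Hoxa4 overlapped. Hoxa6 was in effect a tie, with a gap of 1.0006-fold. Under median-ratio scaling 6 HOX genes instead of 7 were higher in every VAT library. Hoxa5 stood at 9.91 and 5.41 CPM in SAT and 73.8, 58.5 and 40.2 CPM in VAT, a log2 difference of -2.91 (SE 0.44). The posterior genes Hoxa9 and Hoxa10 went the other way, with Hoxa10 at 15.5 and 12.5 CPM in SAT and 1.83, 0.344 and 0.701 CPM in VAT (log2 difference 3.86, SE 0.72). The turn fell between Hoxa7 and Hoxa9, and Hoxa9 lies 18513 bases from Hoxa5 on chromosome 6. In cluster C, Hoxc4 was higher in VAT at 23.8 and 20.2 CPM in SAT and 50.1, 39.99 and 40.7 CPM in VAT, Hoxc5, Hoxc6 and Hoxc8 overlapped, and Hoxc9, Hoxc10 and Hoxc11 were higher in SAT. Hoxc10 had the widest gap of the family, at 55.9 and 22.7 CPM in SAT and 1.97, 1.08 and 0.701 CPM in VAT. Of cluster B only Hoxb5 separated the depots, higher in VAT, and the tested genes of cluster D, Hoxd8 and Hoxd9, overlapped. In all, 25 of 40 HOX genes were tested, 5 were higher in every SAT library and 7 in every VAT library, and 0 passed edgeR's test (adjusted p from 0.146 for Hoxc10 up, and 10 genes at an unadjusted p under 0.05). DESeq2, which called 2.92% of all tested genes, called 7 HOX genes, and limma-voom 0. Over all tested genes, 9.64% were higher in every SAT library and 10.2% in every VAT library. Transcripts inside a cluster overlap, so reads near neighbours such as Hoxa3 and Hoxa5 may be shared.

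**Figure D3:**
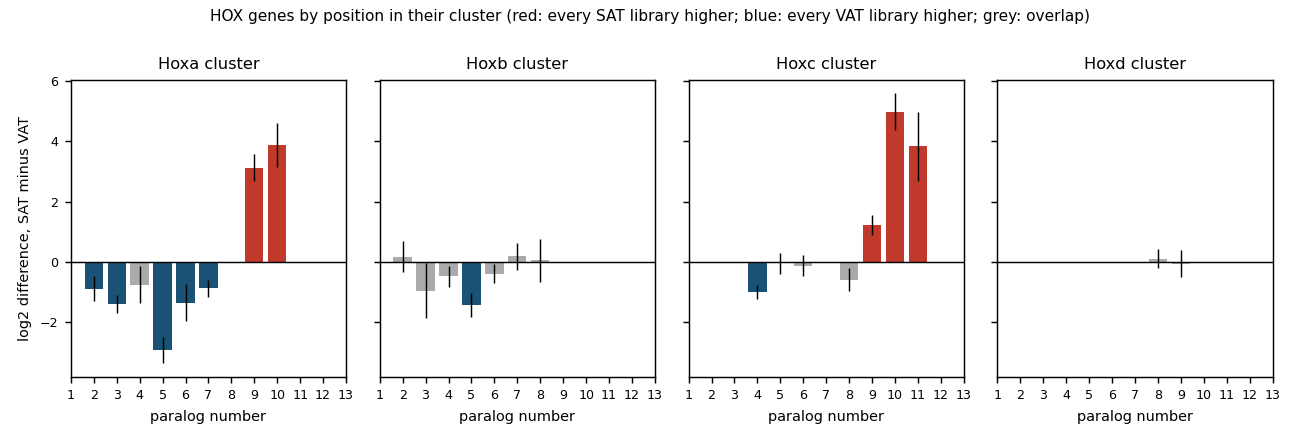
Depot difference of the tested HOX genes by cluster and position. The vertical axis is the fitted log2 difference, SAT minus VAT, with bars of 1 SE, and the horizontal axis is the paralog number. Clusters A and C pass from VAT-higher at low numbers to SAT-higher at numbers 9 and above.

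Some noncoding genes that start head to head with a factor lay on the side of that factor. Gm43050, which starts 748 bases from Tbx5 on the opposite strand, stood at 9.78 and 8.84 CPM in SAT and 0.183, 0 and 0.124 CPM in VAT. Crnde, whose start lies 1505 bases from that of Irx5, stood at 6.71 and 5.50 CPM in SAT and 0.183, 0.258 and 0.247 CPM in VAT, and C130021I20Rik, 682 bases from Lmx1b, stood at 9.48 and 5.82 CPM in SAT and 0.0458, 0 and 0 CPM in VAT. All 3 noncoding genes were near 0 in VAT. Gm20554, 256 bases from Irx2, was higher in every SAT library too, whereas Hoxa11os, 3539 bases from Hoxa10, did not separate the depots. Within SAT they were higher in library 1, while Tbx5, Irx5 and Lmx1b were higher in library 2. The labels and processing notes do not say whether strand was used in counting, so reads from opposite strands cannot be told apart where genes overlap.

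Among all 996 tested transcription factors, 106 had every SAT library higher and 116 every VAT library higher, and 15 and 11 were apart. The separated shares were near the 9.64% and 10.2% of all tested genes. Of the 86 tested homeobox genes, 25 were higher in every SAT library (29.1%) and 17 in every VAT library (19.8%). Of 23 tested regulators of adipogenesis, 3 were higher in every SAT library (13%) and 1 in every VAT library (4.35%), the apart gene Gata2, with a median log2 difference of 0.015. Of 31 lipid handling genes, 2 (6.45%) and 4 (12.9%) were separated and 0 were apart. Both totals were near the 19.8% of all tested genes that separated in either direction. Factors apart in SAT that are not of this developmental kind included Esr1, Ahr and Mef2c. Esr1, the oestrogen receptor alpha, stood at 75.6 and 88 CPM in SAT and 17.8, 11.2 and 21.9 CPM in VAT. The aryl hydrocarbon receptor Ahr was at 5.41 and 11.7 CPM in SAT and 0.550, 0.344 and 1.65 CPM in VAT, and Mef2c at 19.8 and 34.4 CPM in SAT and 5.96, 6.75 and 6.35 CPM in VAT. The immediate early nuclear receptor Nr4a1 was apart in VAT at 722 and 642 CPM in SAT and 1581, 1928 and 1511 CPM in VAT.

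Secreted signals and their receptors made up 7 of the genes apart in SAT and 20 of those apart in VAT, in classes assigned after the values were seen. The classes cover the apart genes only and have no count over all tested genes. In the Wnt pathway the depots differed in which ligand and modulators they made. Wnt2, a canonical ligand, stood at 33.4 and 149.7 CPM in SAT and 0.458, 0.344 and 3.50 CPM in VAT. The secreted frizzled-related proteins, which bind Wnt ligands, divided: Sfrp2 stood at 649.8 and 387 CPM in SAT and 25.6, 20.9 and 109 CPM in VAT and Sfrp4 at 439 and 346 CPM in SAT and 16.6, 14.8 and 161 CPM in VAT, while Sfrp1 stood at 87.6 and 88.2 CPM in SAT and 429, 462 and 229 CPM in VAT. SAT thus had more Sfrp2 and Sfrp4 in both libraries and VAT more Sfrp1 in all 3. The Wnt antagonist Dkk2 was apart in SAT at 67.5 and 54.4 CPM in SAT and 21.2, 10.1 and 4.49 CPM in VAT. Rspo1, an R-spondin that amplifies Wnt signals and is also a mesothelial marker, was apart in VAT at 29.6 and 8.48 CPM in SAT and 103, 88.3 and 101 CPM in VAT, and the planar polarity receptor Ptk7 was at 4.59 and 0.677 CPM in SAT and 32.9, 33.6 and 36.9 CPM in VAT. Over 40 tested Wnt genes, 5 were higher in every SAT library and 8 in every VAT library, shares of 12.5% and 20%. The same shares over all tested genes were 9.64% and 10.2%.

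In the TGF-beta and BMP pathway, Chrdl1, a secreted BMP antagonist, was apart in SAT at 428 and 242 CPM in SAT and 25.8, 30.5 and 15.9 CPM in VAT. Inhbb, the beta B subunit of activin and inhibin, was apart in VAT at 11.4 and 10.6 CPM in SAT and 29.7, 102 and 145 CPM in VAT, and so was Ltbp4, which binds latent TGF-beta in the matrix, at 288 and 135 CPM in SAT and 831, 3037 and 2270.1 CPM in VAT. Of 44 tested genes, 4 were higher in every SAT library and 9 in every VAT library, against 9.64% and 10.2% of all tested genes. Igfbp5, which binds insulin-like growth factors, was the only growth factor gene apart in SAT, at 1780.2 and 4462 CPM in SAT and 58.7, 43.5 and 464 CPM in VAT, and the neurotrophin receptor gene Ntrk3 the only one apart in VAT.

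Guidance genes leaned to VAT: of 46 tested, 12 (26.1%) had every VAT library higher, against 10.2% of all tested genes. Every SAT library was higher in 4, near the 9.64% of all tested genes. Slit2, a secreted ligand of ROBO receptors, stood at 7.31 and 7.58 CPM in SAT and 65.8, 115 and 62.8 CPM in VAT, with no overlap and little spread inside SAT. The transmembrane semaphorins Sema5a and Sema6a were apart in VAT with gaps of 2.34-fold and 2.01-fold. Epha3, an ephrin receptor, was apart in SAT at 65.5 and 33.9 CPM in SAT and 7.20, 6.79 and 5.32 CPM in VAT. Among other receptors apart in VAT, Lpar3 for lysophosphatidic acid stood at 1.64 and 1.62 CPM in SAT and 18.1, 20 and 8.90 CPM in VAT. Ptger4 for prostaglandin E2 was at 4.76 and 0.902 CPM in SAT and 24.5, 30.3 and 18.7 CPM in VAT, and Cmklr1 for chemerin at 22.02 and 6.31 CPM in SAT and 57.7, 172 and 88.3 CPM in VAT. In the Notch pathway, Notch4 was apart in VAT at 2.29 and 2.17 CPM in SAT and 23.6, 46.1 and 11.1 CPM in VAT, beside Lfng, a glycosyltransferase that modifies Notch receptors, at 10.5 and 0.677 CPM in SAT and 84.4, 58.1 and 33.9 CPM in VAT. Notch4 is also known from endothelium. The endothelial list summed to 41.4 and 334 CPM in SAT and 81.3, 79.0 and 313 CPM in VAT, of which Tek made up most in SAT library 2 and VAT library 3, and its part in the level of Notch4 was not tested.

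Among the apart genes, classed after their values were seen, immune genes were the largest named class in SAT, with 22 genes, against 3 in VAT. The class has no count over all tested genes. Its only gene past the edgeR test was a chemokine. Ccl8, a chemokine of the monocyte chemoattractant family, stood at 29.4 and 20.7 CPM in SAT and 0.688, 0.860 and 1.15 CPM in VAT and passed the test (log2 difference 4.79, SE 0.37, adjusted p = 0.0453). Cxcl13, which attracts B cells, stood at 193 and 782 CPM in SAT and 11, 10.7 and 15.95 CPM in VAT. The neutrophil chemokine Cxcl5 was at 6.45 and 5.50 CPM in SAT and 0.688, 0.817 and 0.907 CPM in VAT. Within SAT, Cxcl13 was higher in library 2 and Ccl8 in library 1, so both SAT libraries contributed. The atypical receptors, which take up chemokines without signalling, divided: Ackr1 was apart in SAT at 64.04 and 90.4 CPM in SAT and 12.3, 7.96 and 29.4 CPM in VAT and Ackr4 in VAT at 0.346 and 5.37 CPM in SAT and 31.2, 20.3 and 47.1 CPM in VAT. Of 25 tested chemokine genes, 7 (28%) were higher in every SAT library and 3 in every VAT library. The shares over all tested genes were 9.64% and 10.2%.

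The widest gap of the immune class, 25.7-fold, belonged to Il1r2. Il1r2, the decoy receptor that binds interleukin 1 without signalling, stood at 101 and 684 CPM in SAT and 2.06, 2.37 and 3.46 CPM in VAT. Il1rl1, the receptor for interleukin 33, was at 10.6 and 122 CPM in SAT and 0, 0.215 and 0.701 CPM in VAT. The interleukin 4 receptor chain Il4ra stood at 78.5 and 162 CPM in SAT and 20.2, 31.8 and 17.2 CPM in VAT. All 3 were higher in SAT library 2 than in SAT library 1, and the depots did not overlap. Haptoglobin, Hp, an acute phase protein that binds free haemoglobin, was apart in VAT at 42.9 and 11.5 CPM in SAT and 567, 658 and 561 CPM in VAT. The complement component C4b was apart in SAT at 2722 and 3644 CPM in SAT and 390.2, 632 and 155 CPM in VAT. Of 24 complement genes, 5 were higher in every SAT library and 0 in every VAT library, against 9.64% and 10.2% of all tested genes.

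The summed levels of leukocyte markers overlapped between the depots or were near 0. The macrophage list summed to 61.1 and 29.1 CPM in SAT and 41.7, 30.1 and 35.0 CPM in VAT, and the lymphocyte list to at most 1.95 CPM. Cd79b was at 0 in every library. Among macrophage markers, Cd14 was higher in every SAT library, at 23.5 and 14.2 CPM in SAT and 7.70, 7.14 and 9.97 CPM in VAT. Mpeg1, known from macrophages, was apart in SAT at 5.71 and 5.10 CPM in SAT and 1.51, 2.24 and 1.65 CPM in VAT.

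Interferon-stimulated genes were higher in SAT as a group. Of 59 tested, 30 (50.8%) had every SAT library above every VAT library, and 1 (1.69%), Ifitm1, the reverse. Over all tested genes these shares were 9.64% and 10.2%. The interferon list too was drawn up with earlier results of these data known. The median log2 difference was 0.818, and 57 of 59 had the higher mean in SAT. The shifts were mostly modest. In all, 7 genes were apart with SAT higher, against 0.603% of all tested genes. In edgeR's test 0 passed, and 28 were at an unadjusted p under 0.05, against 1076 of all 15920 tested genes. DESeq2, which called 2.92% of all tested genes, called 14, and limma-voom 0. Isg15, a ubiquitin-like protein, stood at 47.7 and 41.4 CPM in SAT and 10.5, 6.45 and 9.81 CPM in VAT, a log2 difference of 2.32 (SE 0.29). The immunity-related GTPase Igtp stood at 47.7 and 59.1 CPM in SAT and 19.8, 7.74 and 13.6 CPM in VAT. Bst2, or tetherin, which holds budding viruses at the membrane, was at 195 and 169 CPM in SAT and 84.1, 51.6 and 68.1 CPM in VAT. In these 3 genes the SAT libraries lay close together. Oas2, a sensor of double-stranded RNA, stood at 29.9 and 28.4 CPM in SAT and 3.48, 3.96 and 6.39 CPM in VAT, and the GTPase gene Ifi47 at 46.3 and 34.9 CPM in SAT and 11.3, 8.69 and 5.73 CPM in VAT. The exception, Ifitm1, was at 6.71 and 2.57 CPM in SAT and 15.7, 16.5 and 9.36 CPM in VAT. Antigen presentation genes went the same way, with 12 of 28 tested genes (42.9%) higher in every SAT library and 0 in every VAT library. The shares over all tested genes were again 9.64% and 10.2%. Nlrc5, the transactivator of class I genes, was apart at 11.99 and 30.4 CPM in SAT and 1.01, 3.01 and 5.19 CPM in VAT. H2-Q6, a class I gene, was apart as well, but near-identical copies of H2-Q genes make its count uncertain, as for Apol9a and Apol9b.

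**Figure D4:**
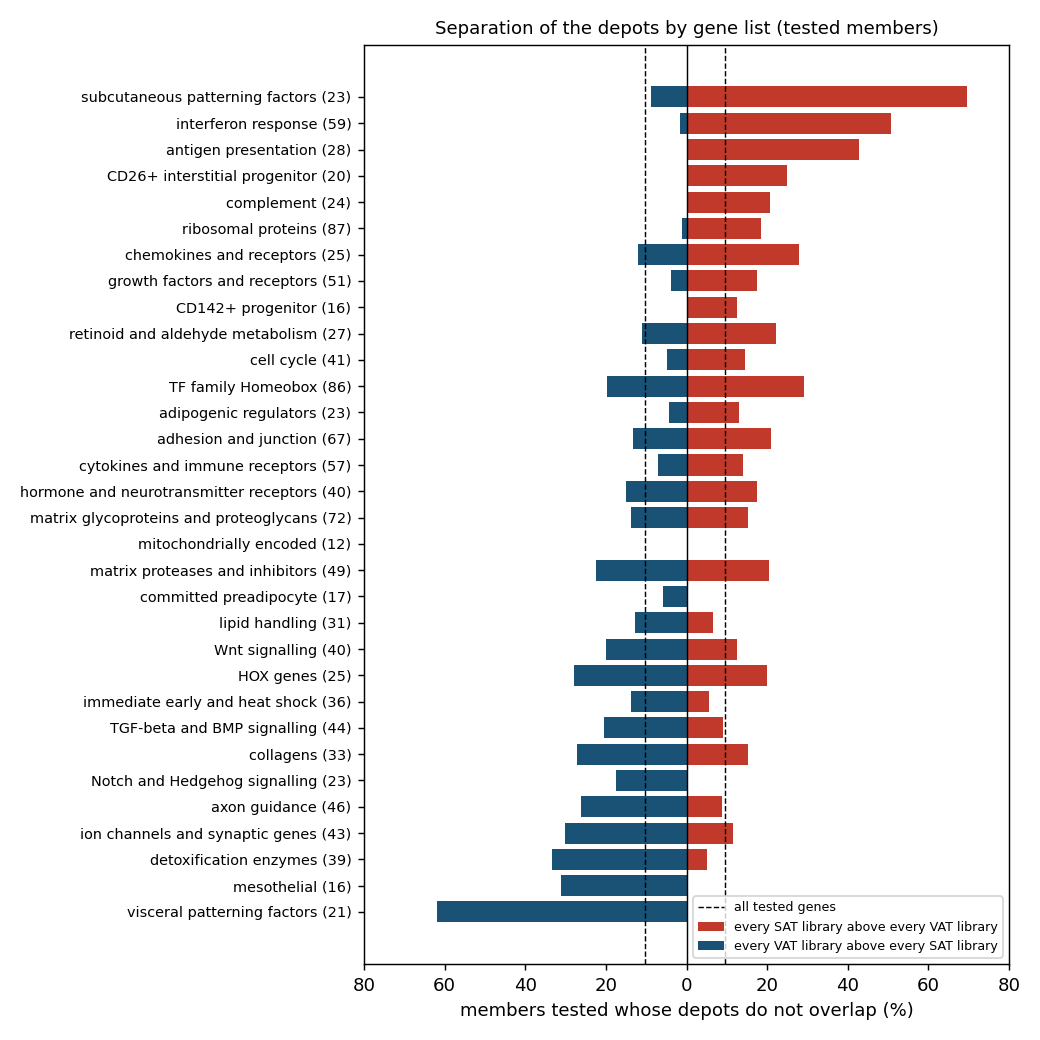
Share of gene lists with 10 or more tested members that separated the depots. Bars give the percentage of tested members with every SAT library above every VAT library and the reverse, to the right and to the left, numbers of tested members stand in brackets, and dashed lines give the same shares over all tested genes, 9.64% and 10.2%. The longest bars are those of subcutaneous patterning (69.6%), visceral patterning (61.9%) and interferon response (50.8%).

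Promoter letters were compared with this pattern because the interferon-stimulated response element, bound by STAT and IRF factors, is known. Windows were the 250 bases before the gene start in RefSeq (GRCm38.p6, the assembly known as mm10). The motif searched was GAAA, then any 2 bases, then GAAA, on both strands, with overlapping matches joined. It is 1 of 5 motifs searched. It occurred in 3.21% of 11092 tested genes with a window, in 14.1% of genes apart in SAT (9 of 64) and in 1.27% of genes apart in VAT (1 of 79). Among interferon genes with a window it occurred in 15 of the 23 that were higher in every SAT library (65.2%) and in 5 of the 22 others (22.7%). Of the other motifs, the T-box half-site aggtgtga occurred in 0.929% of all tested genes, 1.56% of genes apart in SAT and 0% in VAT. The TCF21 E-box CAGCTG occurred in 14.7%, 23.4% and 22.8% in the same order, the GATA site AGATAAG in 2.24%, 6.25% and 5.06%, and the TATA box TATAAA in 8.27%, 20.3% and 11.4%. The sequences of 3 genes apart in SAT and of Oas1a, whose SAT libraries were higher without reaching the gap, are shown 5′ to 3′ on the strand of the gene, with the motif letters in capitals and up to 25 bases on each side.
Isg15, chr4:156200850-156200921, minus strand: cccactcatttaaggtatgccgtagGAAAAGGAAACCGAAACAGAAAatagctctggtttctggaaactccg
Bst2, chr8:71537562-71537627, minus strand: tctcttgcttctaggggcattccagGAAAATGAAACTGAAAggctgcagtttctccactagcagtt
Igtp, chr11:58199497-58199555, plus strand: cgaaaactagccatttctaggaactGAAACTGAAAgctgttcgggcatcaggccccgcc
Oas1a, chr5:120907526-120907570, minus strand: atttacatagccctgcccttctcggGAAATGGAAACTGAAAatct
Isg15 held 3 overlapping matches and Bst2 and Oas1a 2 each. Such a match is a description of letters, not a measured site. Reads of Oas1a and Oas1g may be shared, since the genes are near-identical.

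Matrix genes gave each depot a different set. Mmp3, stromelysin 1, which cleaves many matrix proteins, stood at 1649 and 588 CPM in SAT and 15.8, 15.7 and 4.49 CPM in VAT. Its level in the lower SAT library was 36.1 times that of the highest VAT library on the scale with 0.5 CPM added, and the log2 difference was 6.54 (SE 0.82, adjusted p = 0.146). Mmp27, in the same cluster of chromosome 9 and 115421 bases away, was apart as well, at 37 and 90.2 CPM in SAT and 7.43, 7.74 and 13.6 CPM in VAT. Prg4, or lubricin, a lubricating glycoprotein of joints and fascia, stood at 54.9 and 255 CPM in SAT and 3.90, 7.44 and 6.64 CPM in VAT. In VAT these 3 genes were at most 15.8 CPM. Tll1, a protease that processes procollagen and BMP antagonists, was at 12.3 and 13.6 CPM in SAT and 1.79, 1.33 and 0.948 CPM in VAT. Col1a1 and Col1a2, the chains of type I collagen, were apart, Col1a1 at 14812 and 7561 CPM in SAT and 1508, 2736 and 1513 CPM in VAT and Col1a2 at 28069 and 14514 CPM in SAT and 5948, 6458 and 4952 CPM in VAT. Type I collagen was thus abundant in every library and higher in SAT.

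VAT had more of several collagens outside the fibrillar group. Col6a5, a chain of the collagen VI family, stood at 17.6 and 21.6 CPM in SAT and 1835, 4421 and 1132 CPM in VAT, a log2 difference of -6.97 (SE 0.89, adjusted p = 0.146). Its neighbour on chromosome 9, Col6a6, 27918 bases away, stood at 54.2 and 118 CPM in SAT and 635, 1044 and 352 CPM in VAT. Col4a6 stood at 3.68 and 5.32 CPM in SAT and 79.9, 209.8 and 91.5 CPM in VAT and Col4a5 at 109.6 and 179.9 CPM in SAT and 387, 629.7 and 422 CPM in VAT. These basement membrane chains form a head-to-head pair on chromosome X and start on opposite strands, at 141474076 and 141475419 (GRCm38.p6). Both pairs of neighbours were therefore higher in VAT, with Col4a6 at most 5.32 CPM in SAT. Col8a2, a short-chain collagen, was apart in VAT too. Of 33 tested collagens, 5 were higher in every SAT library and 9 in every VAT library, with a median log2 difference of -0.58. Over all tested genes, 9.64% and 10.2% separated in these directions.

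Glycoproteins of the matrix apart in VAT were Hmcn1, Vwa1, Thbs1, Matn2, Epyc and Fmod. Hmcn1, or hemicentin 1, stood at 1.43 and 0.631 CPM in SAT and 14.7, 45.7 and 57.8 CPM in VAT. Vwa1, a partner of perlecan, was at 26.1 and 5.73 CPM in SAT and 399, 384 and 158 CPM in VAT. Thbs1, or thrombospondin 1, was at 139 and 35.9 CPM in SAT and 533, 1794 and 799 CPM in VAT, abundant in VAT and variable within it. Prg4 and Hmcn1 lie 96359 bases apart on chromosome 1 and went opposite ways. Of 49 matrix proteases and inhibitors, 10 were higher in every SAT library and 11 in every VAT library, so the list had no side. Over all tested genes, 9.64% and 10.2% separated in these directions.

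**Figure D5:**
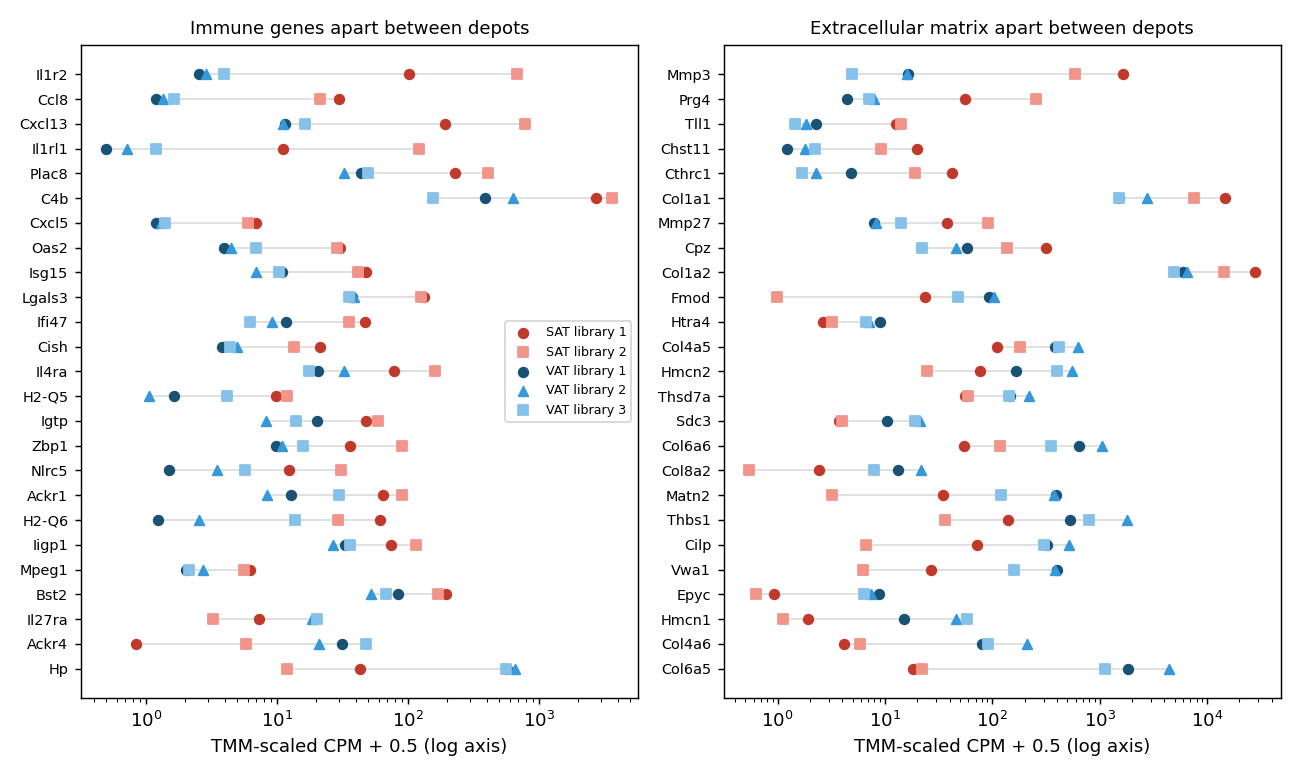
Levels of immune and matrix genes apart between the depots, in each library. The axis gives CPM on a log scale after adding 0.5, points are libraries and colour marks the depot. The chemokines, interleukin receptors and Mmp3 are high in SAT, and Hp and the collagens Col6a5 and Col4a6 in VAT.

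Enzymes of metabolism made up 7 of the genes apart in SAT and 14 of those apart in VAT, in a class assigned after the values were seen. The class has no count over all tested genes. Adh7, a class IV alcohol dehydrogenase that oxidises retinol, stood at 46 and 104 CPM in SAT and 0.504, 0.731 and 0.536 CPM in VAT and passed the test (log2 difference 6.98, SE 0.48, adjusted p = 0.0453). Cyp26b1, which degrades retinoic acid, was apart in SAT as well, at 82.8 and 15.9 CPM in SAT and 1.05, 3.70 and 1.32 CPM in VAT. Genes at both ends of retinoid handling were thus higher in SAT. As a list, 6 of 27 retinoid genes were higher in every SAT library and 3 in every VAT library, against 9.64% and 10.2% of all tested genes. The fatty acid hydroxylase Cyp4b1 stood at 23.5 and 24.3 CPM in SAT and 4.08, 2.88 and 3.67 CPM in VAT. Detoxification genes leaned to VAT, where 13 of 39 (33.3%) were higher in every library, against 2 in SAT. The shares over all tested genes were 10.2% for VAT and 9.64% for SAT. The P450 gene Cyp2s1 stood at 1.08 and 1.44 CPM in SAT and 10.1, 16.4 and 51.9 CPM in VAT. The glutathione transferase Gsta3 was at 11.5 and 3.20 CPM in SAT and 158, 156 and 64.7 CPM in VAT, and the oestrogen sulfotransferase Sult1e1 at 144 and 182 CPM in SAT and 1953, 1274 and 667 CPM in VAT. Sult1e1 kept a clear level in both SAT libraries, so its difference was graded, while Gsta3 was at 3.20 CPM in SAT library 2. The glucuronosyltransferase Ugt1a7c was apart in VAT too, but Ugt1a genes share their last exons and its count is uncertain. Of the steroid pathway, Star, which moves cholesterol into mitochondria, was at 1.30 and 2.80 CPM in SAT and 6.78, 22.8 and 16.8 CPM in VAT, and Cyp27a1, a sterol 27-hydroxylase, at 109.7 and 83.9 CPM in SAT and 412, 373 and 248 CPM in VAT.

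Among the apart genes, those classed as channels, transporters or vesicle release were mostly on the VAT side, 9 against 2. This class too has no count over all tested genes. Cadps, which primes dense-core vesicles for release, stood at 0.0433 and 0 CPM in SAT and 23.4, 38.1 and 23 CPM in VAT and passed the test (adjusted p = 0.0453). Its SAT value rests on 1 count, and the pooled ratio was 1276, with an exact 95% interval of 229 to 50406 for counting error. Amph, an endocytic adaptor known from synapses, stood at 1.38 and 0.0451 CPM in SAT and 51.4, 51.6 and 18.6 CPM in VAT. The chloride channel gene Clic6 was at 2.73 and 4.65 CPM in SAT and 63.6, 86.1 and 42.9 CPM in VAT. In all 3 the lowest VAT library was well above both SAT libraries. The potassium channel gene Kcnk2 was apart in VAT with a gap of 2.74-fold. Kcnj8, a subunit of the ATP-sensitive potassium channel, was apart in SAT at 13.7 and 5.86 CPM in SAT and 1.38, 1.08 and 0.371 CPM in VAT. Of 43 tested channel and synaptic genes, 13 (30.2%) were higher in every VAT library and 5 in every SAT library. The shares over all tested genes were 10.2% and 9.64%.

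Of the apart genes classed as contractile or cytoskeletal, 9 were higher in VAT and 1 in SAT, again without a count of the class over all tested genes. Des, the intermediate filament protein desmin, stood at 3.20 and 14.4 CPM in SAT and 138, 119.7 and 96.5 CPM in VAT, and Actn3, an actinin known from fast muscle, at 1.82 and 0.451 CPM in SAT and 27.6, 28.3 and 15.1 CPM in VAT. Other skeletal muscle markers did not move with Actn3: Tnnt3 stood at 4.50 and 7.44 CPM in SAT and 4.63, 8.86 and 8.99 CPM in VAT, and Acta1 was at most 1.13 CPM. The mural list, which holds Des and Kcnj8, summed to 154 and 58.0 CPM in SAT and 217, 228 and 121 CPM in VAT, and its ranges overlapped. Of its 10 tested markers, 3 were higher in every SAT library and 2, Des and the smooth muscle myosin Myh11, in every VAT library. The shares over all tested genes were 9.64% and 10.2%. Myh11 stood at 5.67 and 5.01 CPM in SAT and 37.9, 62.6 and 5.98 CPM in VAT. Smooth muscle actin, Acta2, overlapped, between 5.46 and 10.5 CPM. The part of mural cells in these differences was not tested.

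Surface proteins apart in SAT held 2 markers used to sort stromal cells, Cd24a at 19 and 11.4 CPM in SAT and 1.05, 1.38 and 1.11 CPM in VAT and Ly6a, which encodes SCA-1, at 2314 and 2040.3 CPM in SAT and 961, 582 and 982 CPM in VAT. The neural adhesion gene Chl1 was apart in SAT at 7.57 and 19.8 CPM in SAT and 0.229, 0 and 0 CPM in VAT. Schwann cell markers moved with it, with a sum of 53.1 and 59.9 CPM in SAT and 22.4, 21.7 and 18.8 CPM in VAT. S100b, at 25.9 CPM, was the highest of them in SAT library 1 and Mbp, at 51.1 CPM, in SAT library 2, and neither separated the depots by itself. Their part in the level of Chl1 was not tested. Adhesion genes as a list had 14 of 67 higher in every SAT library and 9 in every VAT library, against 9.64% and 10.2% of all tested genes.

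Dpp4, which encodes CD26, stood at 6.58 and 1007 CPM in SAT and 5.13, 6.58 and 417 CPM in VAT. F3, which encodes CD142, stood at 618 and 5.32 CPM in SAT and 379, 241 and 99.1 CPM in VAT. In the SAT libraries both transcripts went with the library names and not with the titles. Of 20 tested markers of CD26+ interstitial progenitors, 5 (25%, against 9.64% of all tested genes) were higher in every SAT library. In every VAT library 0 were higher, and Wnt2 was the only one apart. Among 16 CD142+ markers 2 were higher in every SAT library, and of 17 preadipocyte markers 1 was higher in every VAT library. Pan-mesenchymal markers summed to 107090 and 56364 CPM in SAT and 42702, 38746 and 31048 CPM in VAT, with Col1a1, Col1a2 and Ly6a apart. Most of the SAT sums was collagen, namely Col1a1, Col1a2 and Col3a1, the last at 41435 and 18057 CPM. Of 15 tested pan-mesenchymal markers, 7 were higher in every SAT library and 2, Nt5e and Itgb1, in every VAT library. Pdgfra, Pdgfrb, Dcn and Eng overlapped, with the higher mean in VAT. The mature adipocyte list overlapped, at 388 and 26.3 CPM in SAT and 396, 329 and 83.8 CPM in VAT. In the cell cycle list, Ccnd1, which encodes cyclin D1, was the only gene apart, at 34.2 and 63.9 CPM in SAT and 7.33, 7.22 and 8.24 CPM in VAT. Of 41 cell cycle genes, 6 were higher in every SAT library and 2 in every VAT library, against 9.64% and 10.2% of all tested genes.

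Neighbouring genes were apart together in several places. Within 200 kb, 14 pairs formed by 20 of the apart genes were found, and 8 of the pairs lay on the same side. Apart from those already named, Tle2 and Tle6, Groucho-family corepressors separated by 59 bases on chromosome 10, were both higher in SAT, at 36.9 and 28.8 CPM in SAT and 5.82, 9.50 and 11.05 CPM in VAT for Tle2 and 17.4 and 19.5 CPM in SAT and 4.31, 3.18 and 7.38 CPM in VAT for Tle6. The genes not placed in any functional class were 18 in SAT and 20 in VAT. The widest gaps among them belonged to Rpl39l, a ribosomal protein paralog with near-identical copies, and the phosphodiesterase gene Pde7b in SAT, at 9.18 and 6.81 times. In VAT they belonged to 6030408B16Rik, a protein-coding gene by its deposited annotation, and the annexin gene Anxa9, at 5.23 and 5.18 times.

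The test calls rest on 3 residual degrees of freedom and were sensitive to single libraries: edgeR's test called 0 genes without VAT library 1, 2 or 3 (933, 578 and 1005 genes at an unadjusted p under 0.05), 17 without SAT library 1 and 11 without SAT library 2. The last 2 numbers rest on the spread of the VAT libraries alone, since SAT is then a single library. For these sets of libraries no other tool was run. A separated gene is separated in every pair of a SAT and a VAT library, and so also between the libraries with CD26 in their name and between those without it.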

How the data were processed

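RNA was sequenced from poly(A)-selected libraries of sorted fat progenitors. The authors deposited raw counts of reads for each Ensembl gene in the 5 libraries, in a single file that also gives gene lengths in bases. Per the submitters' processing notes, reads were handled with CASAVA, with HISAT2 (version 2.0.5) and with featureCounts (version 1.5.0-p3), on the build mm10. The annotation and the strand setting are not given in the sources used here.

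Depot came from the titles, with no gate term. Counts were scaled by TMM and tested with edgeR 4.0.16 (quasi-likelihood F test, robust, R 4.3.3), with Benjamini-Hochberg adjustment at 0.05 over all genes tested. Of 54532 genes, filterByExpr at a minimum count of 10 kept 15920 and removed 38612, so list counts cover only members that passed. The SE of a log2 difference is its size divided by the square root of F, which may understate the error where counts are few. Intervals at 95% are exact and cover counting error only, since reads carried no molecular identifiers. Separation was read from log2(CPM + 0.5). The fit was tested on simulated counts.

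Named genes passed the test, or were among the 20 protein-coding genes with the widest gap in each direction at 10 CPM or more in every library of the higher depot, or were members of a described list. The gene lists, and the choice of what to compare, were made with earlier results of these data known. Functional classes of the 205 apart genes were assigned after their values were seen and carry no test. Promoter windows came from RefSeq (GRCm38.p6) and were matched by symbol, which left genes without an entry out. No gene was named from the 27 symbols that the deposited file holds as dates. Alternatives changed the scaling, the filter, the pseudocount, the gap, the model and the libraries used. DESeq2 1.42.0 and limma 3.58.1 were run as alternatives. A few genes are not reported here.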

Additional observations from a re-analysis of the deposited data

How the results depend on the processing

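edgeR called 8 genes. The count was 7 or 8 under median-ratio or upper-quartile scaling, a filter of 5 CPM in 2 libraries, or without mitochondrially encoded genes. It was 70 with no filter on low counts, 465 with DESeq2, 0 with limma-voom (963 genes at an unadjusted p under 0.05), 83 with CD26 in the library name as a term, and 0 in the libraries numbered 2 alone (1439 at an unadjusted p under 0.05). Leaving out each library in turn gave 0 to 17 calls. With the library number as a replicate block, 5 genes passed. The labels do not say whether the numbers mark a batch. Deviations from depot means correlated at 0.640 for number 1, and at 0.0179 or 0.626 for number 2. The deviations of the 2 SAT libraries mirror each other, and their number and gate change together, so these values cannot judge an effect of the number. The libraries numbered 1 had the higher mitochondrial shares, 2.83% in SAT and 4.33% in VAT. The cause of the changes in calls was not tested.

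Genes apart with SAT higher numbered 109 to 412 when a library was left out, 366 in the libraries numbered 2 alone, 37 at a 4-fold gap and 1534 with no minimum. Those apart with VAT higher numbered 122 to 386, 469, 32 and 1625 in the same settings. Fewer libraries make the rule easier to meet. List counts under the other 2 scalings were added after seeing the data. Under upper-quartile scaling the ribosomal protein genes higher in every SAT library went from 16 to 11, the solute carriers from 26 to 21, and the Wnt genes higher in every VAT library from 8 to 6. Depth limits the low side of the widest differences, since Wt1, Shox2 and Cadps rest on 1 count there.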

Other observations

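Beyond the groups above, 9 of 30 tested serpin genes (30%), which encode protease inhibitors and related proteins, were higher in every SAT library. In every VAT library 1 was higher. The shares over all tested genes were 9.64% and 10.2%. Serpinh1, the collagen chaperone HSP47, stood at 5000.3 and 2726 CPM in SAT and 2251, 1878 and 1720.3 CPM in VAT. Serping1, the inhibitor of complement C1, was at 4735 and 4949 CPM in SAT and 3253, 3083 and 2592 CPM in VAT. In each, the SAT libraries were above the VAT libraries.

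Cytosolic ribosomal protein genes were slightly higher in SAT: 16 of 87 were higher in every SAT library and 1 in every VAT library, with a median log2 difference of 0.247 (11 and 1 under upper-quartile scaling). The nuclear genes of the respiratory chain had 3 and 2 of 93, and proteasome subunits 1 and 0 of 37, against 9.64% and 10.2% of all tested genes. Solute carriers had 26 and 37 of 256. These are counts with no test.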
